A study of Daphnia magna with 20 samples.

Results

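The comparison set whole water fleas kept for 48 h with lithium cobalt oxide (LCO) at 1 mg/L against unexposed animals, and used 10 of the 20 libraries of the series. The exposed group held the libraries labelled low 1, 2, 3, 5 and 6, and the control group those labelled control 1, 2, 4, 5 and 6, each number being kept below as the replicate number. Every library was made from 10 pooled wild-type Daphnia magna that were 5 days old when the exposure began and were fed alfalfa suspension in all groups. Controls were kept in moderately hard water alone. The other groups, used here only to place the lower dose, were LCO at 10 mg/L (high 1, 2, 4, 5 and 6) and dissolved ions without particles, 66 µg/L lithium as LiCl and 15 µg/L cobalt as CoCl2 (Ion 1, 3, 4, 5 and 6), an amount matched in the series design to what the 10 mg/L dose releases. One library of the 10 mg/L group has a treatment tag that reads untreated and was grouped by its title. No label states whether the pools of a group were kept in separate vessels, so p-values measure the spread between these pools, which may be partly technical.

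LCO is a layered metal oxide that forms the cathode in many lithium-ion batteries, and in water its particles shed lithium and cobalt while the rest stays solid. Daphnia filter suspended matter from the water, so particles of this kind reach the gut as food does, whereas dissolved ions also enter across the gills and body surface. A nanoparticle dose and an ion dose can therefore expose different tissues of the same animal. RNA of a whole animal is the sum over gut, fat cells, carapace epithelium, muscle and ovary, and in such bulk samples fewer cells of a type cannot be told apart from less RNA per cell.

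The deposited tables count reads on transcript targets that carry sequence identifiers and no gene names. None of the 26646 identifiers matched the RefSeq gene table for the species (0 matches), so functions and positions are not given, the whole-animal label could not be checked against marker genes, and no sequence is shown. Estimated counts per library summed to 24422294 to 42458093 in control and 25111305 to 37878255 at 1 mg/L, and 16163 targets had enough counts to be tested. Levels are given as CPM, counts per TMM-scaled library size. A target is said to be called when its adjusted p was under 0.05 in edgeR's quasi-likelihood fit of all 20 libraries.

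A few libraries stood apart from their groups and bear on what follows. Control replicate 1 exceeded every other control library by at least 8-fold in 207 targets, and LCO 1 mg/L replicate 5 exceeded every other library of its group by as much in 240. The lists shared 160 targets, 77.3% of the first and 66.7% of the second, so 1 unexposed and 1 exposed pool carried largely the same set of high transcripts. Of these targets 2 of the 207 and 1 of the 240 were called between the groups, beside 9.33% of all tested targets, and the lists were picked for a wide spread within a group, which itself works against a call. Ion replicate 5 differed from the other ion libraries in targets described below. Counts and differences that involve the ions or the doses are given with and without these libraries where that was run.

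Exposure to 1 mg/L raised 911 targets and lowered 597, which is 5.64% and 3.69% of those tested and 9.33% together. The higher targets rose by a median log2 fold change of 0.79, with quartiles at 0.51 and 1.25, and the lower targets fell by a median of 0.56, with quartiles at -0.89 and -0.39. The median over all tested targets was -0.03. Most changes were modest. Among the higher targets 294 changed by less than 1.5-fold and 289 by 1.5-fold to 2-fold, while 265 rose by 2-fold to 4-fold, 49 by 4-fold to 8-fold and 14 by more. Among the lower targets 321 changed by less than 1.5-fold and 158 by 1.5-fold to 2-fold, while 67 fell by 2-fold to 4-fold, 23 by 4-fold to 8-fold and 28 by more. An unadjusted p under 0.05 was reached by 4097 targets.

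The balance between directions depended on how the data were handled. Higher targets were 60.4% of the calls, against 79.5% with limma on log2(TPM + 1), with 1144 higher and 295 lower, and 49.1% among targets with a mean CPM of at least 5, with 713 higher and 738 lower. The count of calls also rested on single pools. Leaving out exposed replicate 1 or 3 gave 790 or 911 calls, and leaving out control replicate 4 or 6 gave 980 or 1005, while leaving out exposed replicate 5 gave 2000. The 597 lower calls moved most, to 199 without exposed replicate 1, 223 without replicate 3 and 351 without replicate 2, to 329 and 321 without control replicates 4 and 6, and to 902 without exposed replicate 5. The 911 higher calls ran from 591 to 1098, the extremes being without exposed replicates 1 and 5. Without both control replicate 1 and LCO 1 mg/L replicate 5 there were 935 higher and 571 lower targets, of which 779 and 385 were among those called with all libraries.

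**Figure D1:**
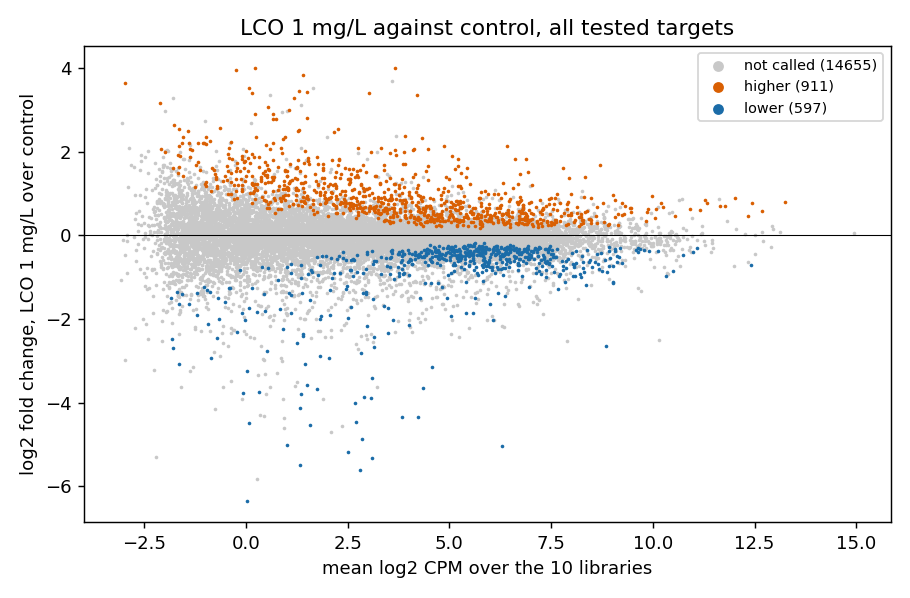
Log2 fold change of LCO 1 mg/L over control (y axis) against the mean log2 CPM of the 10 libraries (x axis), 1 point per tested target, with the 911 targets called higher in orange and the 597 called lower in blue. Called lower targets sit mostly at middle and high levels with small changes, apart from a scatter of 28 that fell by over 8-fold.

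The directions differed in where they lay along the range of levels. The tested targets were divided into 4 bins of equal size by mean CPM. In the bin with the lowest levels (0.156 to 2.53 CPM), 170 were higher and 50 lower. In the second bin, up to 14.8 CPM, 263 were higher and 101 lower. In the third, up to 45.6 CPM, the numbers were 201 and 170, and in the bin with the highest levels 277 and 276. The share called thus ran from 5.44% in the lowest bin to 13.7% in the highest, while the median change of called targets shrank, from a log2 fold change of 1.42 to 0.51 for the higher and from -1.62 to -0.49 for the lower. The spread between replicates also shrank with level. The median SD of log2 CPM within control was 0.588 in the lowest bin and 0.177 in the highest, and within the 1 mg/L group it was 0.481 and 0.141.

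**Figure D2:**
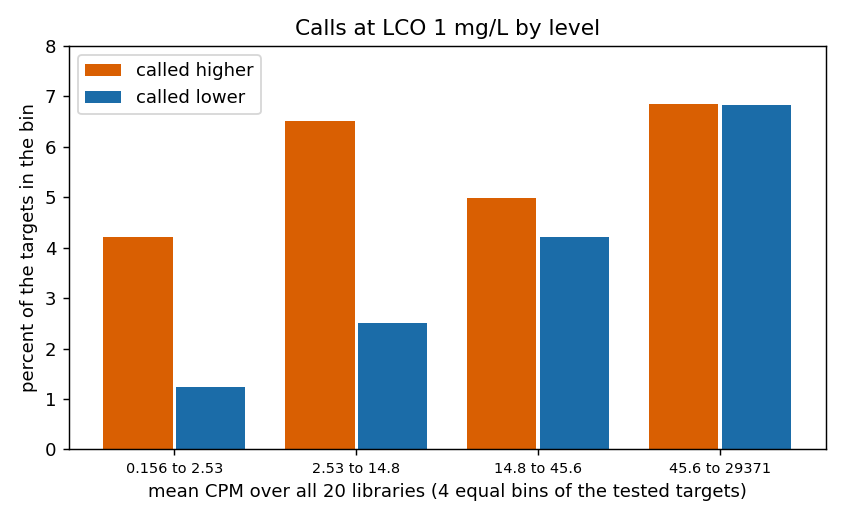
Percent of targets called higher (orange) and lower (blue) at 1 mg/L in each of 4 equal bins of the tested targets, ordered by mean CPM over all 20 libraries (x axis). Higher targets make up 4.21% of the lowest bin and lower targets 1.24%, whereas both make up close to 6.8% of the highest.

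Longer targets were called higher more often. The share called higher was 4.31% in the shortest of 4 equal bins by length, up to 1025 bases, then 4.78%, 6.21% and 7.25%, the last in targets of at least 3356 bases. The share called lower did not follow length, at 3.29%, 4.4%, 3.81% and 3.27%. Longer targets also collect more reads, and the part of level in the share called higher was not tested. Counts that are not whole numbers mark targets that share reads with a similar sequence, and their levels are uncertain. They occurred in at least 1 library for 19.1% of the higher and 21.8% of the lower targets, against 24.2% of all tested targets.

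Among the 100 targets with the highest mean TPM in control (reads per target length, scaled to the library), 12 were called, 5 higher and 7 lower, a share close to the 9.33% of all tested. The called targets together made up a visible part of the RNA. The 911 higher targets held 8.12% ± 0.399 of the scaled counts in control and 13.3% ± 1.46 at 1 mg/L, and the 597 lower targets 8.24% ± 0.27 and 5.52% ± 0.418 (SD, n = 5). These shares describe targets picked for their difference and test nothing.

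The groups did not overlap in 822 targets that were higher at 1 mg/L, 5.09% of those tested, and in 623 that were lower, 3.85%. Of the called targets 651 of the 911 higher (71.5%) and 335 of the 597 lower (56.1%) were free of overlap. Without both libraries that shared the set of high transcripts the share of tested targets without overlap was 18.1%, against 8.9% with all 10, though 4 libraries against 4 also separate more easily than 5 against 5.

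Here 4 targets are described in full, those with the largest changes in each direction among called targets with a mean of at least 10 CPM, whole counts in all 10 libraries and no overlap between the groups, conditions that 319 higher and 248 lower targets met. KZS17998, a target of 1557 bases, stood at 10.6, 0.60, 5.97, 0.40 and 4.37 CPM in control replicates 1, 2, 4, 5 and 6. At 1 mg/L it stood at 55.0, 54.1, 67.1, 137 and 40.9 CPM in replicates 1, 2, 3, 5 and 6. The lowest exposed pool lay well above the highest control, and replicate 5 lay far above its group. The log2 fold change was 4.0 (SE 1.03, adjusted p 0.0202 in edgeR), from a mean of 4.38 CPM ± 4.21 to 70.8 ± 38 (SD, n = 5 each).

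KZS10752, of 1739 bases, was at 4.40, 1.21, 2.96, 2.62 and 1.81 CPM in the control libraries in the same order, and at 21.3, 28, 26.5, 35.3 and 27.0 CPM at 1 mg/L. Both groups were narrow beside the gap between them. Its log2 fold change was 3.40 (SE 0.63, edgeR adjusted p 0.00244), with means of 2.60 CPM ± 1.22 and 27.6 ± 5. Neither of these targets was called between the doses. At 10 mg/L KZS17998 averaged 91 CPM ± 51.4 and KZS10752 34.8 ± 14.3, with log2 differences from the lower dose of 0.36 (SE 0.91) and 0.33 (SE 0.56).

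In the ion group both rising targets split in the same way. KZS17998 was listed at 0.48, 1.12, 1.58 and 4.13 CPM in ion replicates 1, 3, 4 and 6 and at 38.2 CPM in replicate 5. KZS10752 was at 2.46, 1.55, 4.36 and 5.64 CPM in those replicates and at 27.6 CPM in replicate 5. Thus 4 ion pools lay within or near the control range and 1 lay near the LCO range. With all ion libraries the log2 differences of 1 mg/L over the ions were 2.95 (SE 0.98, edgeR adjusted p 0.0225) for KZS17998 and 1.72 (SE 0.58, adjusted p 0.0246) for KZS10752. Ion replicate 5 was left out only after the data were seen. Being the highest ion pool for both targets, its removal was bound to widen these differences. Without ion replicate 5 the difference for KZS17998 was 5.32 with an SE of 0.89 (edgeR adjusted p 0.000133). For KZS10752 it was then 3.01 with an SE of 0.43 (edgeR adjusted p 3.31e-05).

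Among the falls, KZR99631, of 560 bases, was at 77.1, 2.96, 114, 3.47 and 101 CPM in control replicates 1, 2, 4, 5 and 6. At 1 mg/L it was at 2.22, 1.47, 2.0, 2.62 and 1.89 CPM. The exposed pools were uniform, and control replicates 2 and 5 lay just above them while the other 3 were far higher. The log2 fold change was -4.87 (SE 0.80, edgeR adjusted p 0.00112), from 59.8 CPM ± 53.3 to 2.04 ± 0.425. The ion mean was 5.11 CPM ± 2.76 and the 10 mg/L mean 2.72 ± 0.561, so every exposure was low beside the control mean. The ion pools, at 2.19 to 9.60 CPM, and the 10 mg/L pools, at 2.17 to 3.50 CPM, overlapped control replicates 2 and 5.

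KZS14190, of 524 bases, stood at 13.5, 233, 262, 26.1 and 55.2 CPM in control and at 5.61, 10.3, 3.55, 5.33 and 3.98 CPM at 1 mg/L. Control replicates 2 and 4 were the high ones here, and replicate 1, high for KZR99631, was the lowest. The log2 fold change was -4.35 (SE 0.75, edgeR adjusted p 0.00152). The mean was 118 CPM ± 120 in control, 4.38 ± 2.46 at 10 mg/L and 26.1 ± 14.5 with ions. All ion pools, at 15.1 to 51.4 CPM, lay within the control range. The ions were still called lower than control, with a log2 fold change of -2.18 (edgeR adjusted p 0.0127). The 1 mg/L group lay below the ions by a log2 difference of 2.18 (edgeR adjusted p 0.0171).

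**Figure D3:**
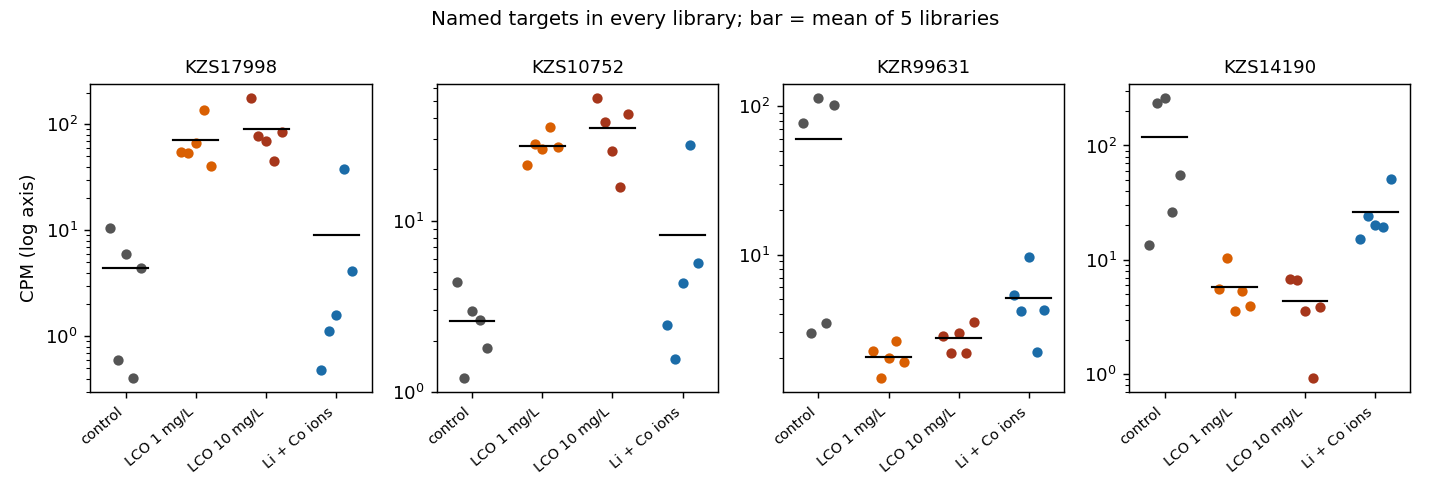
CPM of the 4 named targets on a log axis in each of the 20 libraries, by group, with a bar at the mean of 5 libraries. KZS17998 and KZS10752 are high in both LCO groups and in 1 ion pool, and KZR99631 and KZS14190 vary widely among the controls and are low in both LCO groups.

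Wide spread among the controls was common to large changes in both directions. Of the 28 targets that fell by over 8-fold, 26 (92.9%) ranged over more than 8-fold among the control libraries. So did 9 (64.3%) of the 14 that rose by over 8-fold, beside 7.8% of all tested targets. Among higher targets with a control mean under 1 CPM the share was 21.3%. The groups did not overlap in 6 of the 28 (21.4%) and in 12 of the 14 (85.7%), beside 8.9% of all tested. The median length of the 28 was 550 bases, against 1866 over all tested targets, and 53.6% had counts that were not whole. Their number rested on LCO 1 mg/L replicate 5, rising to 156 without it and standing at 41 without it and control replicate 1. The median control level of the 14 was 0.635 CPM, against 15.1 CPM over all tested targets. Without control replicate 1 there were 44 such rises, and 24 without control replicate 4. Among the higher targets 141 had a control mean under 1 CPM, and these rose by a median log2 fold change of 1.61, from a median of 0.541 to 1.57 CPM.

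Each library was also placed on lists chosen without it. For each of the 10 libraries the calls were made from the others, and the held-out library's median log2 difference from the controls kept was taken over the resulting higher and lower lists. The controls kept served both to choose the lists and as the baseline, so the held-out control libraries show what a pool outside the choice gives. On the higher lists, held-out LCO 1 mg/L libraries lay at 1.08, 0.82, 0.85, 0.44 and 0.66 (replicates 1, 2, 3, 5 and 6), and held-out controls between -0.07 and 0.21. The sets of values did not overlap, and between 94.2% and 99.9% of the listed targets lay above the control mean in each exposed pool. In the held-out controls that share ran from 39.4% to 72.2%.

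On the lower lists the picture was less even. Held-out LCO 1 mg/L libraries lay at -0.77, -0.48, -0.73, -0.20 and -0.37 in the same order, and held-out controls between -0.26 and -0.02. Replicate 5 thus lay inside the range of the held-out controls, with 71.6% of 897 listed targets below the control mean, while the other 4 exposed pools lay below every control. In held-out control replicates 2 and 5 the shares below the mean were 84.1% and 85.2%. By this measure the rise set all 5 exposed pools apart from the held-out controls, and the fall 4 of them. The lower calls made without replicate 5 included 156 falls over 8-fold, against 28 with all libraries. Of these 902 calls, 502 were among the 597 made with all libraries. What part the large falls had in the median of replicate 5 was not tested. On the 597 calls, which replicate 5 helped to choose, its median was -0.39, with controls between -0.11 and 0.10.

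**Figure D4:**
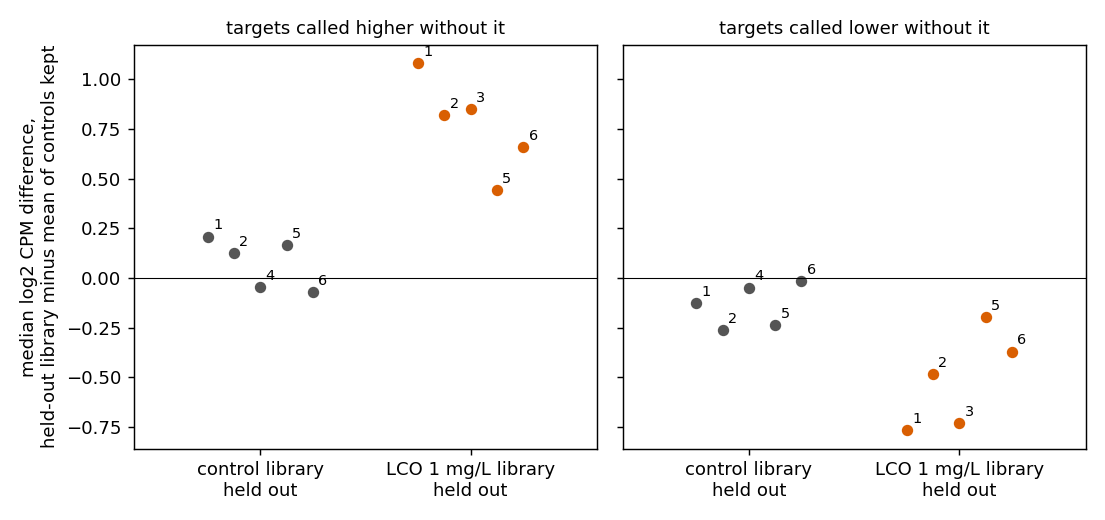
Median log2 CPM difference of a held-out library from the mean of the controls kept (y axis), over targets called higher (left) or lower (right) without it; numbers beside the points are replicate numbers. Exposed pools sit at 0.44 to 1.08 on the left, above all controls, and replicate 5 sits among the controls on the right.

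The higher dose and the ions place these targets further. The lists below were chosen with the control libraries that the other comparisons also use, so counts shared between comparisons are given as values only. At 10 mg/L, where 13.7% of all tested targets were called higher and 16.7% lower (30.4% together), 742 of the 911 higher targets were called higher and 510 of the 597 lower ones lower. With ions, where 25.4% of all targets were called higher and 24.7% lower (50.1% together), 494 of the 911 were called higher and 47 lower, and 464 of the 597 were called lower. For the 911 the median log2 fold change was 0.79 at the lower dose, 0.76 at the higher dose and 0.47 with ions. The 597 had medians of -0.56, -0.72 and -0.82. The 1 mg/L median is that of the comparison that chose the targets. Without control replicate 1 and LCO 1 mg/L replicate 5 the medians in the same order were 0.82, 0.71 and 0.39 for the higher targets and -0.67, -0.74 and -0.59 for the lower, so among the falls the place of the ions depended on these libraries. Without ion replicate 5 they were 0.74, 0.70 and 0.49, and -0.51, -0.70 and -0.98.

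By library, the median of the higher targets over the control mean ran from 0.56 to 1.01 at 1 mg/L, from 0.63 to 0.83 at 10 mg/L and from 0.26 to 0.53 with ions. The lower targets ran from -0.70 to -0.39, from -0.82 to -0.50 and from -0.87 to -0.62. Every ion pool lay below every LCO pool of either dose on the higher targets. On the lower targets the groups overlapped, and ion replicate 5 was the ion pool closest to control in both directions.

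**Figure D5:**
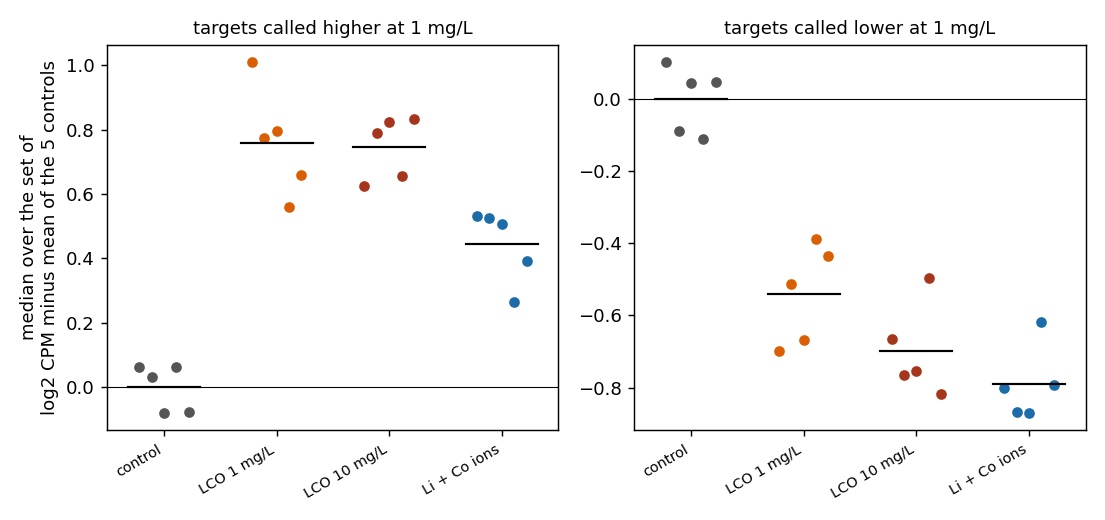
Median over the 911 targets called higher (left) and the 597 called lower (right) at 1 mg/L of log2 CPM minus the control mean, 1 point per library, with a bar at the group mean. The ion pools lie lowest of the exposures on the left, and the LCO 1 mg/L pools lie on average nearest to control on the right.

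Few of these targets differed between the doses in the test of that difference, which shares the 1 mg/L libraries with the calls. The control libraries enter it only through the shared fit, that is, the filter, the scaling and the estimate of spread. Over all targets 1.58% were higher and 4.7% lower at 10 mg/L than at 1 mg/L, 6.28% in all. Among the 597 lower targets 75 were lower still at 10 mg/L, and against control their median log2 fold changes were -0.57 at the lower dose, -1.06 at the higher dose and -1.21 with ions. Among the 911 higher targets 16 were higher still at 10 mg/L, with medians of 0.58, 1.16 and 1.14. A further 43 were higher at 1 mg/L than both in control and at 10 mg/L, and 4 of the lower targets were higher at 10 mg/L than at 1 mg/L. The 16 and 43 are shares of the 911 close to the 1.58% and 4.7% of all tested targets. The 75 are a larger share of the 597 than that 4.7%, and the 4 a smaller share than that 1.58%. The 43 had medians of 0.41, 0.03 and -0.06 in the same order. Without control replicate 1 and LCO 1 mg/L replicate 5 the counts 75, 16, 43 and 4 became 63, 11, 125 and 34, and without ion replicate 5, which alters the shared estimate of spread, they became 152, 23, 57 and 10. The remaining 852 higher and 518 lower targets were not called between the doses, which does not show that they are equal there. In all, 42.8% of the higher targets had a larger fitted level at 10 mg/L than at 1 mg/L, and 69.2% of the lower targets a smaller one.

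Differences from the ions were more common, as they were over all tested targets, where 20.1% were higher and 20.8% lower at 1 mg/L than with ions (40.9% in all). This test also shares the 1 mg/L libraries with the calls. That favours a place above the ions for the higher targets and below them for the lower. Among the 911 higher targets 391 lay above the ions and 37 below. Against control, the median log2 fold change of these 391 was 0.86 at the lower dose, 0.76 at the higher dose and 0.09 with ions. Among the 597 lower targets 242 lay above the ions, that is, they fell further with ions, with medians of -0.54, -0.84 and -1.15. Another 88 lay below the ions, with medians of -0.66, -0.46 and 0.03. Leaving out ion replicate 5 changed the list of calls as well and gave 412 and 105 for the higher targets and 455 and 126 for the lower. Leaving out control replicate 1 and LCO 1 mg/L replicate 5 gave 498 and 20, and 144 and 179, so the larger class among the lower targets depended on these libraries.

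Taking the calls of the 3 exposures side by side, 461 targets were higher in all of them, 264 were higher at both LCO doses and not called with ions, and 106 were higher at 1 mg/L and called in neither other exposure. Of the 264, 205 were above the ions in the test of 1 mg/L against ions. Their medians were 0.93 at both LCO doses and 0.21 with ions. Of the 106, 29 were lower at 10 mg/L than at 1 mg/L and 75 were above the ions, and their median log2 fold change at 1 mg/L was 0.46. Both sets were picked for a call at 1 mg/L and none with ions, from the same libraries. Their place above the ions is thus partly built in, beside 20.1% of all tested targets. The same holds for the 106 and the higher dose, beside 4.7%. The 47 targets that were higher at 1 mg/L and lower with ions had medians of 0.57, 0.30 and -0.48. For the lower targets, 441 were lower in all 3 exposures, 68 at both LCO doses without a call for ions, and 59 were called lower at 1 mg/L and in neither other exposure. The 441 had medians of -0.54, -0.80 and -1.02. Without control replicate 1 and LCO 1 mg/L replicate 5 the counts for the higher targets were 387, 294, 141 and 71, and for the lower 346, 111 and 73. Without ion replicate 5 they were 571, 276, 133 and 69, and 632, 80 and 63.

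Called targets tended to carry neighbouring identifiers. Of the higher targets whose next-numbered identifier was tested, 10.9% (78 of 713) had that identifier called higher as well, and 3.4% had it called lower, beside 5.64% and 3.69% over all targets. Of the lower targets 9.3% (45 of 486) were followed by another lower target and 5.3% by a higher one. The longest unbroken series were 3 identifiers for higher and 5 for lower targets. The 5 had log2 fold changes of -3.08 to -1.13, with median CPM over the 5 of 21.4 to 51.8 in the control libraries and 9.39 to 18.4 at 1 mg/L. Taken singly, 2 of the 5 did not overlap between the groups and 3 did. They were 571 to 4633 bases long, and 2 of them had counts that were not whole. Whether neighbouring numbers mean neighbouring genes is not given in the files.

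Measures of the libraries themselves were compared over the 252 ways to divide 10 libraries into groups of 5, where the smallest possible two-sided p is 0.00794. At 1 mg/L, 13548 targets ± 142 reached 1 CPM, against 13379 ± 63.5 in control (SD, n = 5; exact permutation p = 0.0476, adjusted over 3 measures 0.119). For this measure CPM was taken over the library total of all targets, without TMM scaling. The 100 targets with the most counts in a library held 30.5% ± 1.2 of its counts at 1 mg/L and 28.7% ± 1.23 in control (exact permutation p = 0.0794, adjusted 0.119). Total counts differed by less than the spread between libraries (exact permutation p = 0.437). None of the 3 passed after adjustment. Replicates were more alike at 1 mg/L than in control, with a median SD of log2 CPM over all tested targets of 0.231 against 0.298, a description without a test.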

How the data were processed

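The 20 libraries of pooled whole Daphnia magna were deposited as 1 table each over the same 26646 targets. Per the file headers these hold estimated counts per target, which the authors did not normalize; in a library 87.5% to 90.3% are whole numbers (within 0.001). They also hold deposited TPM values, which divide the counts by effective length and sum to an equal total per library, and target lengths in bases. Column names are those of kallisto output; the program, annotation and build are not given in the sources available.

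Estimated counts were rounded and tested with edgeR 4.0.16 (R 4.3.3): filterByExpr over the 4 groups (minimum count 10, minimum total 15), TMM scaling, 1 quasi-likelihood fit of 20 libraries by group without covariates, two-sided tests, and Benjamini-Hochberg adjustment over 16163 targets for each of 5 contrasts. An SE is the absolute log2 fold change over the square root of F. Log2 CPM used a prior count of 2. Library measures were compared by exact permutation (scipy 1.17.1). The script was tested on simulated counts. No 2 control libraries, and no 2 at 1 mg/L, agreed within sampling noise (chi-square per degree of freedom at least 28.7). Precision was limited by the spread between pools and, at low levels, by counts. Named targets were called, had a mean of at least 10 CPM, whole counts and no overlap, and were the 2 with the largest change each way. Preset gene lists by product name needed gene names and could not be run. The comparison, lists, alternatives and naming rule were chosen with earlier results of these data known. Alternatives were DESeq2 1.42.0 (its size factors in edgeR, and its Wald test), other filters, the compared libraries only, a replicate block, limma 3.58.1 with log2(TPM + 1), thinning, and left-out libraries; leaving out ion replicate 5 was added after seeing the data. Figures were drawn with matplotlib 3.10.9.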

Additional observations from a re-analysis of the deposited data

Results flagged for a closer look

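Among 22 groups of 5 values, 4 had a library far from the rest, with a gap of over 0.71 of the group's range. Chance gives about 1 in 20 for normally distributed values. The CPM values were not put on a log scale, and most groups come from the 4 named targets, picked for large changes. That rate therefore need not hold here, and the flags test nothing. LCO 1 mg/L replicate 5 lay above its group in KZS17998 (ratio 0.726). Ion replicate 5 lay above the other ion libraries in KZS17998 (0.903) and in KZS10752 (0.843), and ion replicate 6 lay above the others in KZS14190 (0.746).

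Tests of the difference between exposures gave further results. Of the 1508 targets called at 1 mg/L, 138 differed between the doses and 758 between 1 mg/L and the ions. Over all tested targets the shares were 6.28% and 40.9%. Both tests share the 1 mg/L libraries with the calls. KZS17998 and KZS10752 were higher at 1 mg/L than with ions by log2 differences of 2.95 and 1.72, and KZS14190 differed by -2.18.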

How the results depend on the processing

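Of 1508 targets called at 1 mg/L, 911 were higher, 597 lower and 446 changed by over 2-fold. Leaving out 1 library at a time gave 790 to 2000 calls, 591 to 1098 higher, 199 to 902 lower and 287 to 682 over 2-fold, each lowest without LCO 1 mg/L replicate 1 and highest without its replicate 5. The share of targets without overlap was 8.6% to 14.6% with 1 library left out, and 18.1% without control replicate 1 and LCO 1 mg/L replicate 5. Lower calls numbered 1035 by the DESeq2 Wald test, 333 without a filter and 295 with limma on log2(TPM + 1). Changes over 2-fold numbered 212 when a mean of 5 CPM was required and 233 with limma. DESeq2 size factors, thinning and a fit of the 10 compared libraries kept all 4 counts within 1.5 times. The lists held less well in the fit of the 10 compared libraries. Its 705 higher and 491 lower calls shared 658 of the 911 and 343 of the 597. Falls over 8-fold then numbered 15, against 28 in the fit of all 20 libraries.

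Of the targets higher at 1 mg/L, the Wald test placed 34 higher still and 104 lower at 10 mg/L, and 76 below the ions; of the lower targets it placed 180 lower still and 20 higher at 10 mg/L, 448 above the ions and 154 below. Without control replicate 1 and LCO 1 mg/L replicate 5, 125 higher targets were lower at 10 mg/L and 20 below the ions, and 34 lower targets were higher at 10 mg/L, 144 above the ions and 179 below. Without ion replicate 5, 105 higher targets were below the ions, and 152 lower targets were lower still at 10 mg/L, 10 higher, and 455 above the ions.

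The named targets kept their direction under every alternative run. Their choice by largest change and no overlap between the groups largely fixed this beforehand. With the replicate number as a block, 853 targets were called, 593 higher and 260 lower, and KZS17998 had an adjusted p of 0.0691 in edgeR. Equal numbers in control and LCO 1 mg/L are not stated to share anything, and their deviations correlated at -0.14, 0.28, -0.27 and 0.09 (replicates 1, 2, 5 and 6), so they were not treated as pairs. Library measures did not pass under any setting. Low levels limit the lowest bin, where replicates varied most.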
